A study of Mus musculus with 12 samples.

Results

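The ADAMTS proteases are secreted zinc metalloproteases that carry thrombospondin repeats, and 8 of their genes were examined here among the 25655 genes of each deposited table. The members, Adamts1, Adamts2, Adamts4, Adamts5, Adamts9, Adamts10, Adamts12 and Adamts15, were found by name in both tables. The series profiled RNA of PDGFRα+ cells, a mesenchymal stromal and progenitor population, by 3' end sequencing in 12 samples. The knockout samples, 3 from muscle and 3 from bone, carried PDGFRα-CreER and Esr1flox/flox, so that Esr1, the gene of estrogen receptor alpha, can be deleted in cells that express the Pdgfra-driven Cre. Of the 3 muscle controls, replicates 1 and 2 carried PDGFRα-CreER alone and replicate 3 also carried Esr1flox/+. Of the 3 bone controls, replicate 1 carried Esr1flox/flox without the Cre and replicates 2 and 3 carried PDGFRα-CreER alone. CreER is a Cre that acts after tamoxifen, and no dose or time of tamoxifen and no age is given in the labels. The series title names female mice. Muscle cells were sorted as negative for CD45, CD31 and Vcam1 and positive for PDGFRα, and bone cells likewise without the Vcam1 gate. The series asked which genes depend on Esr1 in muscle PDGFRα+ cells and bear on bone metabolism.

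ADAMTS proteases are made with a propeptide that convertases such as furin remove, and their ancillary domains bind them to matrix. They fall into groups by substrate. ADAMTS1, ADAMTS4, ADAMTS5, ADAMTS9 and ADAMTS15 cut the large proteoglycans versican and aggrecan, ADAMTS2 removes the amino-terminal propeptide of fibrillar procollagens, ADAMTS12 cuts the cartilage oligomeric matrix protein, and ADAMTS10 binds fibrillin microfibrils. In mouse muscle, Adamts5 and Adamts15 are known for clearing versican around fusing myoblasts.

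The coding sequence around the zinc-binding site is shown for all 8 members because it is the feature that makes them proteases, and because it parts them in a way that the choice of members did not use. Each line is a run of 36 coding bases from the GENCODE M21 transcript with the longest coding sequence. Capitals mark the codons of the 3 zinc-binding histidines and the eighth codon of the run.
Adamts1: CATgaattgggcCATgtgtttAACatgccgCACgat
Adamts4: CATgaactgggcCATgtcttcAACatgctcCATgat
Adamts9: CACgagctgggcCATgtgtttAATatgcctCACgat
Adamts15: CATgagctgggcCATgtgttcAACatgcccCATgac
Adamts5: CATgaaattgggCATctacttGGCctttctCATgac
Adamts2: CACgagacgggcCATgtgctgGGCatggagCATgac
Adamts10: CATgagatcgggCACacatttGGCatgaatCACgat
Adamts12: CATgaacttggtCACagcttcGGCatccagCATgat
The eighth codon encoded asparagine in Adamts1, Adamts4, Adamts9 and Adamts15, and glycine in Adamts5, Adamts2, Adamts10 and Adamts12. Over the 28 pairs of members, between 20 and 32 of the 36 bases were the same, with a median of 23. Adamts4 and Adamts15 shared the most, 32 of 36 bases (88.9%).

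The members lie on 7 chromosomes, and Adamts1 and Adamts5 are neighbours. On GRCm38, in the GENCODE M21 annotation, Adamts1 (ENSMUSG00000022893) spans chromosome 16, 85793827 to 85803113, on the minus strand. Adamts5 (ENSMUSG00000022894) spans chromosome 16, 85856173 to 85901828, on the same strand, with 53059 bases between the genes. The shortest member, Adamts1, covers 9287 bases in 9 exons, and the longest, Adamts12 (ENSMUSG00000047497, chromosome 15, 11064790 to 11349231), covers 284442 bases in 24 exons. Adamts2 (ENSMUSG00000036545) is on chromosome 11, 50602084 to 50807573, Adamts4 (ENSMUSG00000006403) on chromosome 1, 171250421 to 171260637, and Adamts9 (ENSMUSG00000030022) on chromosome 6, 92772699 to 92943492. Adamts10 (ENSMUSG00000024299) is on chromosome 17, 33524204 to 33553782, and Adamts15 (ENSMUSG00000033453) on chromosome 9, 30899155 to 30922452. The reads come from transcript ends, and no other annotated gene overlapped the last exon of any of the 8 members.

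Every fold change, p and group mean below is from the authors' own comparison of knockout with control, and positive log2 fold changes are higher in the knockout. The tables give 1 level per gene, the mean of the knockout or of the control samples, whichever is larger. Its unit is not named, and no source used here says whether it is scaled by gene length. It summed to 1150350 over the genes of the authors' deposited table for muscle and 1171400 in that for bone. Values of single samples are not given, because the names of the per-library columns match no sample label and those columns were not used. The spread between replicates, the depth of each sample and any pairing could therefore not be shown. Where replicates are not said to come from separate animals, a p measures only the spread between samples, which may be technical.

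The sorted cells were checked against marker genes. In muscle, Pdgfra had a larger group mean of 494 per the authors' deposited table, beside 0.781 for the leukocyte gene Ptprc (CD45) and 3.19 for the endothelial gene Pecam1 (CD31). Other markers of those cells were also above 0 in muscle, with Lyz2 at 61.4, S100a8 at 17.3 and Csf1r at 15.4 for leukocytes, and Tek at 22.0, Egfl7 at 16.8 and Kdr at 11.9 for endothelium, per the authors' deposited table. The summed larger group mean of the muscle markers was 124 for leukocytes, 57.6 for endothelium and 3931 for erythroid cells, with the globin gene Hba-a2 at 1607, per the authors' deposited table. For markers of mural cells of the vessel wall it was 881, with Acta2 at 458. Vcam1, which the muscle sort also gated against, had 53.7 in muscle per the authors' deposited table. In bone, Pdgfra had 8.60 per the authors' deposited table, beside 23.1 for Ptprc. All 12 stromal markers were above 0 in both tables, with a summed larger group mean of 58424 in muscle and 4031 in bone, from tables that may be scaled separately. Of 12 leukocyte markers in bone, 11 had a p and all 11 were higher in the knockout, 8 of them at an unadjusted p under 0.05, and only Cd3e was at 0. Over all bone genes with a p, 69.7% were positive and 33% had an unadjusted p under 0.05. The summed larger group mean in bone was 10743 for the leukocyte markers and 687540 for the erythroid markers per the authors' deposited table. It was 3708 for the chondrocyte markers, with Col2a1 at 2040, and 1171400 over all genes. No level of these markers is split by group in the columns used, but their fold changes give a direction. Of 8 erythroid markers with a p in bone, 7 were higher in the knockout (median log2 fold change 0.91), 0 at an unadjusted p under 0.05. Of 10 bone lineage markers, 7 were higher. At an unadjusted p under 0.05, 2 of these 10 were higher and 2 lower. The part of all these markers in the bone values of the ADAMTS genes was not tested. In bulk RNA fewer cells of a type and less RNA per cell cannot be told apart. Esr1 itself did not pass in either tissue per the authors' deposited table (log2 fold change 1.02 in muscle, FDR = 1.00, and -2.69 in bone, FDR = 0.440). Which exons are flanked by loxP sites is not in the labels, so a 3' tag of Esr1 does not check the genotypes.

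**Figure D1:**
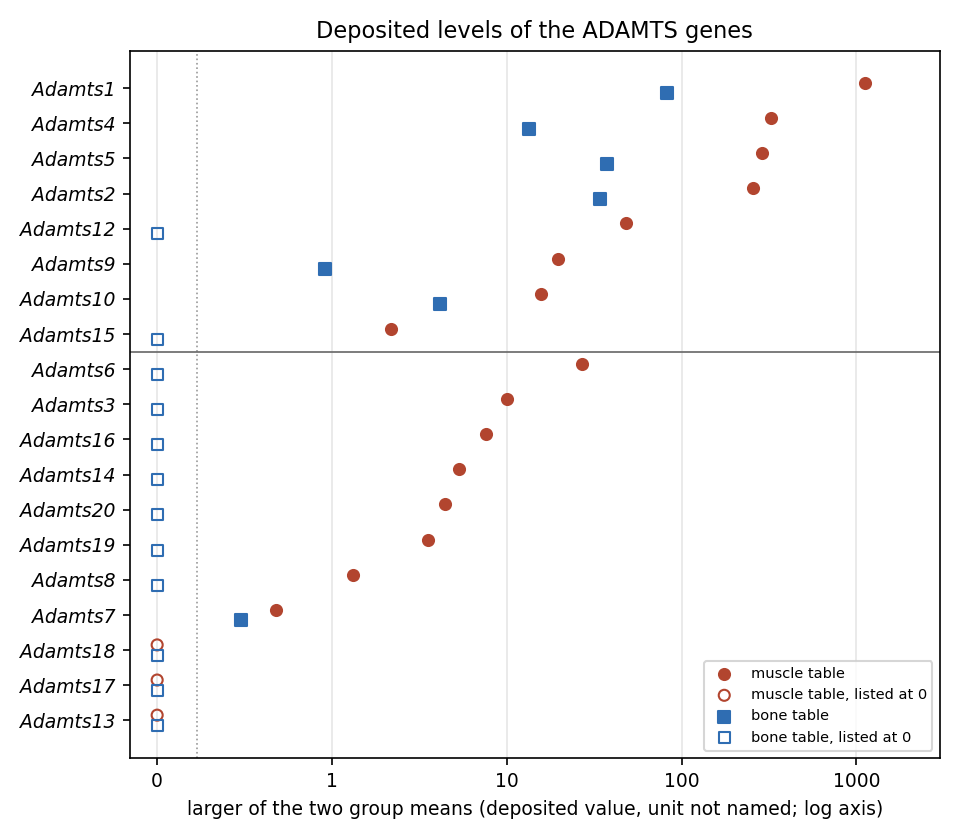
Larger group mean, of knockout or control (deposited value, unit not named, log axis) of the 19 mouse ADAMTS genes, in the muscle table (circles) and the bone table (squares), with the 8 members above the line. Open symbols at the left are genes listed at 0. All 8 members were above 0 in muscle, from 2.17 for Adamts15 to 1117 for Adamts1, and Adamts12 and Adamts15 were listed at 0 in bone.

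In muscle, none of the 8 members passed the authors' FDR of 0.05. Of the 7 members with an FDR, 0 passed in either direction, where 0.127% of the 7107 genes with an FDR passed. At an unadjusted p under 0.05 the count was 1 of 8, Adamts12, against a background of 11.7% of the 13158 genes with a p. Under the other call rules 0 members passed. These rules took in 0.0456% of genes with Benjamini-Hochberg adjustment over every gene with a p, 0.0304% with the Bonferroni p, 0.11% and 0.254% with adjustment over genes whose larger group mean reached 10 and those where it reached 50, and 0.183% at an FDR under 0.1. Of the 8 members 5 had a positive and 3 a negative value per the authors' deposited table. Their log2 fold changes had a median of 0.31, beside 0.12 and 53.5% positive over all genes with a p. Adamts15 had a p but no FDR, at a larger group mean of 2.17 that is below the lowest one with an FDR, 9.95.

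Among the proteoglycan-cutting members, Adamts1 had the narrowest error in muscle. Adamts1, which in the mouse ovary is induced by the progesterone receptor, had a larger group mean of 1117 and a log2 fold change of 0.00 (p = 0.993, FDR = 1.00) per the authors' deposited table. If the authors' p is from a two-sided normal test, which the sources used here do not state, that value has a standard error of 0.29 and a 95% interval of -0.57 to 0.57, or 0.675-fold to 1.49-fold. A doubling or a halving of Adamts1 lies outside that interval. Its level in the knockout therefore cannot be told from the control, to within that range.

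The aggrecanases Adamts4 and Adamts5, best known for breaking down cartilage aggrecan in mice, had values of opposite sign. Adamts4 had a larger group mean of 323 and a log2 fold change of -0.33 per the authors' deposited table (p = 0.388, FDR = 1.00), with an implied interval of -1.08 to 0.42. Adamts5 had 290 and 0.64, or 1.56-fold, per the authors' deposited table (p = 0.127, FDR = 1.00), with an implied interval of -0.18 to 1.46. Both intervals include 0. Of 463 other genes with a larger group mean within 1.5 times that of Adamts5, 23.1% had a fold change at least as large in either direction.

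Adamts9 and Adamts15 had wider errors. Adamts9, a protease anchored near the cell surface, had a larger group mean of 19.6 and a log2 fold change of 2.49 per the authors' deposited table (p = 0.181, FDR = 1.00), with an implied interval of -1.16 to 6.15. Adamts15 had 2.17 and -3.85 per the authors' deposited table (p = 0.113, no FDR), with an implied interval of -8.61 to 0.91. Neither value can be set apart from 0, and 22.2% and 55.3% of genes at similar levels had fold changes as large.

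The procollagen amino-propeptidase gene Adamts2, whose loss causes a fragile-skin disorder in humans, was positive without passing. It had a larger group mean of 256 and a log2 fold change of 0.61, or 1.53-fold, per the authors' deposited table (p = 0.142, FDR = 1.00), with an implied interval of -0.21 to 1.43. Its procollagen substrate Col1a2 rose in the same table, with 1.27 and an FDR of 0.00261 per the authors' deposited table. The difference between these genes was not tested. Adamts10, mutated in a human short-stature and lens disorder, had 15.6 and -0.83 per the authors' deposited table (p = 0.672, FDR = 1.00), with an implied interval of -4.68 to 3.02.

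Adamts12 stood apart from the other members in muscle. It had a larger group mean of 48.1 and a log2 fold change of 9.89 per the authors' deposited table (p = 0.000445, FDR = 0.138, Bonferroni p = 1.00). Its p ranked 23rd of 13158. Of 2180 other genes with a larger group mean between 32.1 and 72.2, 2 had a fold change as large in either direction and 0.596% a p as small. Its adjusted p was between 0.138 and 1.00 over the FDR, the Benjamini-Hochberg and the Bonferroni settings that included it, so it did not pass any of them at 0.05.

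The fold change of Adamts12 lay on a line along which size went with level. When log2 fold changes were plotted against levels, 1750 muscle genes (13.3% of those with a p) formed a separate straight band at the upper edge, in which the log2 fold change exceeded log2 of the larger group mean by 4.25 to 4.97. No gene lay between 2.77 and 4.25 on this measure. Adamts12 was on the band, at 4.31, and was the second of its 1750 genes both by level and by p. Along the band p fell as the level rose (Spearman's rho of -0.99 over the genes of the band, which share their libraries). The band was found after the values were seen. The smaller of the group means is not among the columns used. On the band the log2 fold change was tied to the level by the offset of 4.25 to 4.97. The fold change of Adamts12 is therefore not an estimate of size. Its sign was positive, but Adamts12 did not pass (FDR = 0.138 per the authors' deposited table), so no direction is established. A matching band of negative values held 1144 muscle genes. Whether a single sample placed Adamts12 on its band was not tested, because the per-library columns were not used.

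**Figure D2:**
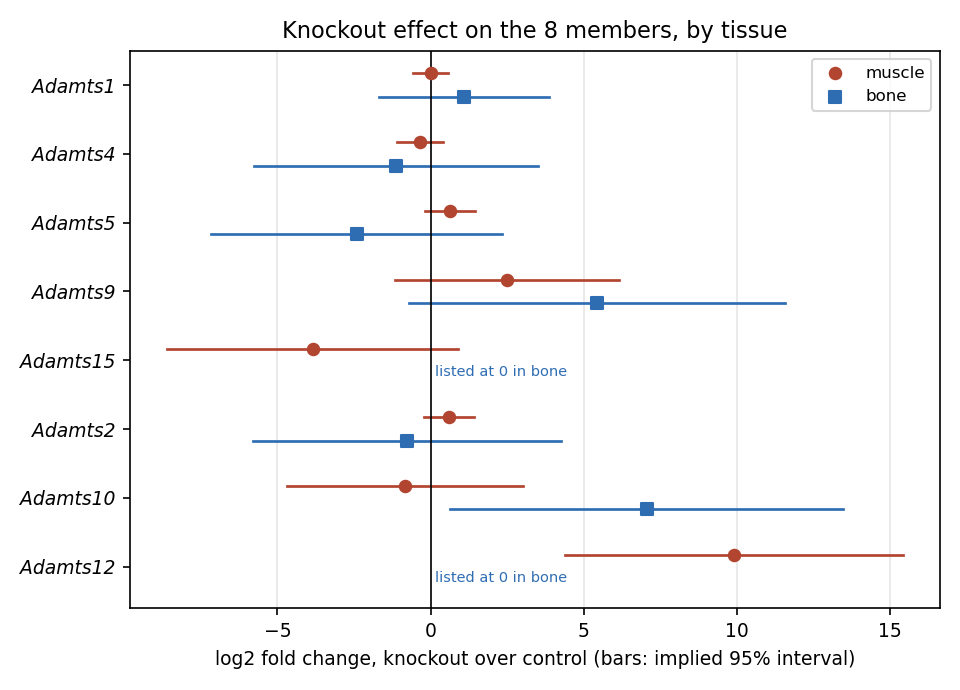
Log2 fold change of knockout over control for the 8 members in muscle (circles) and bone (squares), with the 95% interval implied by the authors' p under a normal test. The Adamts1 interval in muscle spans -0.57 to 0.57, while Adamts12 in muscle and Adamts10 in bone are the values whose intervals leave out 0. An interval without 0 means an unadjusted p under 0.05, as for 11.7% of muscle and 33% of bone genes with a p. Adamts12 in muscle and Adamts10 in bone lie on an outer band, so their values are not estimates of size.

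In bone, again none of the members passed. Adamts12 and Adamts15 were listed at 0 per the authors' deposited table, as were 59% of all genes, and give no fold change. Of the 5 members with an FDR, 0 passed in either direction, where 0.0352% of the 8534 genes with an FDR did. At an unadjusted p under 0.05 the count was 1 of the 6 with a p, Adamts10, where 33% of the 10518 genes with a p did so. No member passed with Benjamini-Hochberg adjustment over every gene with a p (0.0285% of genes passed), with the Bonferroni p (0.00951%), or with adjustment over genes whose larger group mean reached 10 (14.1%) or 50 (0.605%). Both level filters left out Adamts10, at 4.15, so they could not call it. Of the 6, 3 were positive and 3 negative per the authors' deposited table. Their log2 fold changes had a median of 0.17, beside 2.51 and 69.7% positive over all genes with a p. That background is not matched to the levels of the members. Of bone genes with a larger group mean of 1 to 5, 87.3% were positive, and of those at 50 to 100, 38.3%.

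The proteoglycan-cutting members in bone had wide intervals. Adamts1 had a larger group mean of 82.4 and a log2 fold change of 1.10 per the authors' deposited table (p = 0.437, FDR = 0.666), with an implied interval of -1.67 to 3.88. Adamts5 had 37.6 and -2.41 per the authors' deposited table (p = 0.319, FDR = 0.537), with an implied interval of -7.17 to 2.34. Adamts4 had 13.5 and -1.14 per the authors' deposited table (p = 0.630, FDR = 0.822), with an implied interval of -5.77 to 3.49. All of these intervals include 0 as well as a change of several fold. They do not exclude an effect of that size in bone.

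Adamts2, the procollagen amino-propeptidase gene, had a larger group mean of 34.0 and a log2 fold change of -0.76 per the authors' deposited table for bone (p = 0.766, FDR = 0.902). Its implied interval was -5.80 to 4.27. Adamts9 had 0.908 and 5.44 per the authors' deposited table (p = 0.0821, no FDR), with an implied interval of -0.69 to 11.58.

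Adamts10, which codes for the microfibril-binding member, had the largest bone value of the members. Its larger group mean was 4.15 and its log2 fold change 7.06 per the authors' deposited table (p = 0.0311, FDR = 0.0988, Bonferroni p = 1.00). A value of this size was usual at that level. Of 1571 other genes with a larger group mean between 2.77 and 6.22, 50.5% had a fold change at least as large, 86.6% were positive and the median was 7.07. At an FDR under 0.1 Adamts10 would be called with 32.2% of the genes that have an FDR. Adamts10 and Adamts9 both lay on the upper band of the bone table, which held 4360 genes, 41.5% of those with a p. Adamts10 was at position 1807 of these by level. On this band too the fold change was tied to the level, so neither the value of Adamts10 nor that of Adamts9 is an estimate of size.

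**Figure D3:**
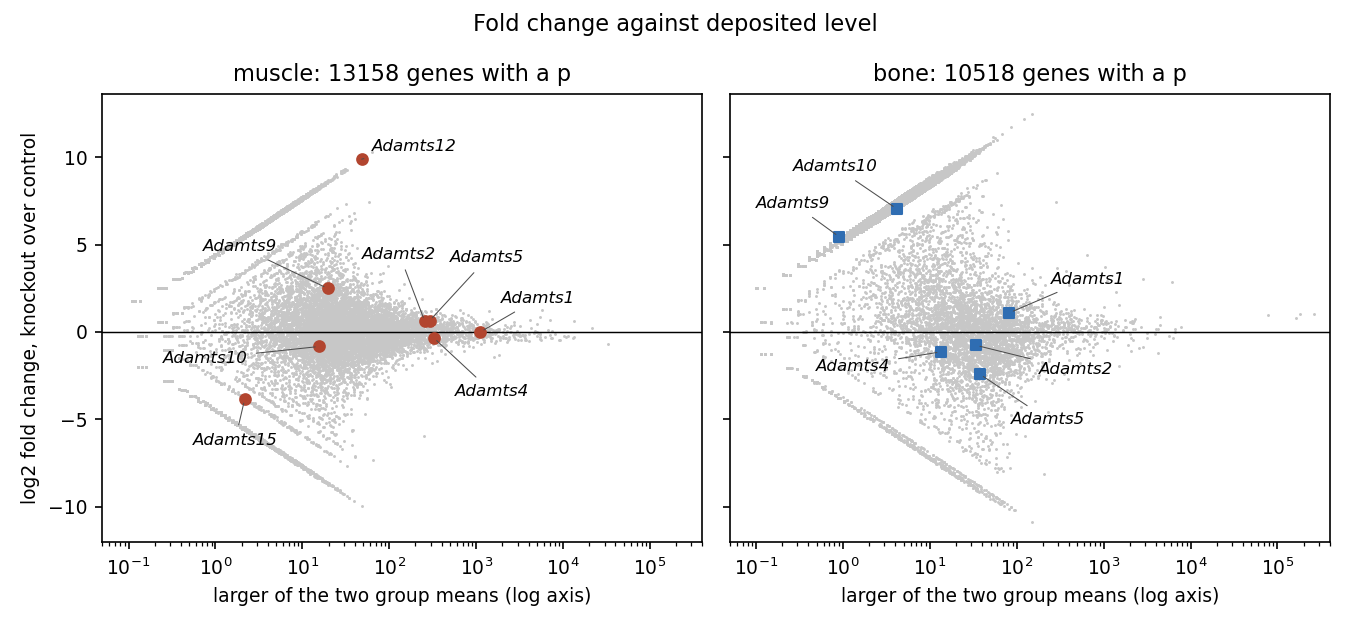
Log2 fold change of knockout over control against the larger group mean (log axis), for all genes with a p in muscle (left) and bone (right). Adamts12 sits near the upper end of the straight outer band in muscle (offset 4.31), and Adamts9 and Adamts10 sit within the dense upper band in bone.

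The knockout effects of the 6 members with a p in both tissues were compared by a normal approximation, added after the values were seen. It used each gene's own implied standard errors and was run for all 9598 genes with a p in both. No member passed after Benjamini-Hochberg adjustment over these genes, and neither did any other gene. At an unadjusted p under 0.05 it was 1 of 6 members, Adamts10, beside 24.6% of all genes. The bone value of Adamts10 lies on the upper band and is not an estimate of size, so no size of its difference is given. For Adamts5, at 0.64 in muscle and -2.41 in bone per the authors' deposited table, the muscle value minus the bone value was 3.05 (95% interval -1.77 to 7.88), and for Adamts1 it was -1.10 (-3.93 to 1.73). These intervals are too wide to show that the tissues act alike. Levels in the separate tables were higher in muscle for each of the 8 members, for example 1117 in muscle and 82.4 in bone for Adamts1, but how the tables were scaled to each other is not given.

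None of the remaining 11 ADAMTS genes of the mouse passed either. In muscle 8 had a p and 1 had an FDR, while Adamts13, the von Willebrand factor protease gene, Adamts17 and Adamts18 were listed at 0 per the authors' deposited table. Adamts6 had a larger group mean of 26.9 and a log2 fold change of -9.07 per the authors' deposited table (p = 0.00225, FDR = 0.232). Adamts14, a procollagen propeptidase gene like Adamts2, had 5.36 and -6.82 per the authors' deposited table (p = 0.0315, no FDR). Adamts16 had 7.63 and 7.19, and Adamts20 had 4.44 and 6.44, per the authors' deposited table (p = 0.0328 and 0.0516, no FDR). Of the 8 with a p, 7 lay on an outer band, beside 1 of 8 members and 22% of all genes with a p. These shares are not matched to level. The 8 had larger group means from 0.480 to 26.9. The upper band in muscle ended at 62.5 and the lower at 48.5, and Adamts1, Adamts2, Adamts4 and Adamts5 lay above both. In bone, 10 of the 11 were listed at 0 per the authors' deposited table, and Adamts7, which like Adamts12 cuts cartilage oligomeric matrix protein, had 0.303 and 3.89 (p = 0.171, no FDR).

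The ADAMTS-like genes code for related matrix proteins without a protease domain. Of 7 listed genes, 5 had a p and 4 an FDR in muscle, and none passed. Adamtsl2 had -4.39, Adamtsl4 0.96, Adamtsl5 1.20 and Adamtsl1 0.38 as log2 fold changes per the authors' deposited table, at p of 0.0679, 0.388, 0.504 and 0.548. In bone 3 had a p and 1 an FDR, and none passed. Adamtsl1 had 6.43, Adamtsl4 4.37 and Adamtsl3 0.58 per the authors' deposited table, at p of 0.0478, 0.142 and 0.765, and Adamtsl1 and Adamtsl4 lay on the upper band.

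Genes of matrix proteins that ADAMTS proteases cut or bind had mostly positive values in muscle, with 1 call. Of 20 such genes 17 had a p and 14 an FDR. Col1a2 rose, none fell and 13 did not pass. Of the 17, 14 were positive per the authors' deposited table (median log2 fold change 0.70), and 6 had an unadjusted p under 0.05, all higher. Over all muscle genes with a p, 53.5% were positive, the median was 0.12 and 11.7% had an unadjusted p under 0.05. The stromal markers were positive for 11 of 12, with 5 at an unadjusted p under 0.05, and Col1a1, Col1a2, Col3a1 and Dcn are in both lists. Of 6 erythroid markers with a p, 5 were negative, among them Alas2 (-5.64, p = 0.000409, FDR = 0.132) and Hba-a2 (-1.41, p = 0.0117, FDR = 0.455) per the authors' deposited table. The part of these markers in the values of the list was not tested. Beside Col1a2, the smallest p belonged to Col1a1 (0.86, FDR = 0.204), Col3a1 (0.70, FDR = 0.478) and the proteoglycan gene Dcn (0.65, FDR = 0.518) per the authors' deposited table. The aggrecan gene Acan and the brain proteoglycan genes Bcan and Ncan were listed at 0 in muscle. In bone 15 of the 20 had an FDR, none passed and 4 were positive per the authors' deposited table (median -0.73), beside 69.7% positive and a median of 2.51 over all bone genes with a p. That background depended on level and is not matched to this list. At larger group means of 20 to 50, 50 to 100, 100 to 300 and above 300, 50.4%, 38.3%, 44.4% and 66.3% of bone genes were positive. Of 9 chondrocyte markers with a p in bone, 2 were positive (median -1.11), and Col2a1, Acan and Comp are in both lists. Their part in the values of the list was not tested. The smallest p belonged to Nid1 (7.52, on the upper band), Thbs1 (3.11), Fn1 (-1.01) and Col2a1 (-1.11) per the authors' deposited table, with FDR of 0.0863, 0.269, 0.281 and 0.446.

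Inhibitors, activating convertases and clearance receptors showed no call in either tissue. In muscle 13 of 15 had a p and 9 an FDR, with 9 positive per the authors' deposited table (median 0.34). Timp3, the tissue inhibitor that blocks the aggrecanases, had a larger group mean of 1568 and a log2 fold change of 0.09 per the authors' deposited table (p = 0.782), with an implied interval of -0.53 to 0.71. Lrp1, the endocytic receptor that takes up ADAMTS4 and ADAMTS5, had 540 and 0.35 per the authors' deposited table (p = 0.301). The smallest p belonged to the convertase genes Pcsk5 (-1.26, p = 0.0564) and Pcsk7 (-3.71, p = 0.0996), to Spock2 (0.63, p = 0.186) and to Timp2 (0.34, p = 0.229) per the authors' deposited table.

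In bone 10 of these 15 genes had a p and 8 an FDR. Timp3 had a larger group mean of 294 and a log2 fold change of -0.94, and Lrp1 had 107 and -1.06, per the authors' deposited table (FDR = 0.520 and 0.731). The smallest p belonged to Pcsk7 (-7.72, p = 0.0172), Pcsk5 (5.50, p = 0.0765), Timp1 (-3.87, p = 0.106) and Reck (4.16, p = 0.145) per the authors' deposited table. Pcsk7, Pcsk5 and Reck lay on an outer band.

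Other procollagen-processing genes act at the same step as Adamts2 or at the opposite end of the molecule. In muscle 5 of 7 had a p, 3 an FDR and none passed. Pcolce2, an enhancer of carboxy-propeptide removal, had a log2 fold change of 0.99 per the authors' deposited table (p = 0.00227, FDR = 0.232). Tll1, Mep1b and Pcolce had 3.74, -2.00 and 0.23 per the authors' deposited table, at p of 0.132, 0.439 and 0.545. In bone 5 had a p, 3 an FDR and none passed. Bmp1, the carboxy-propeptidase gene, had 8.71 on the upper band, Pcolce2 had -1.54, Mep1b 1.20 and Tll1 -1.25 per the authors' deposited table, at p of 0.00765, 0.138, 0.553 and 0.629.

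**Figure D4:**
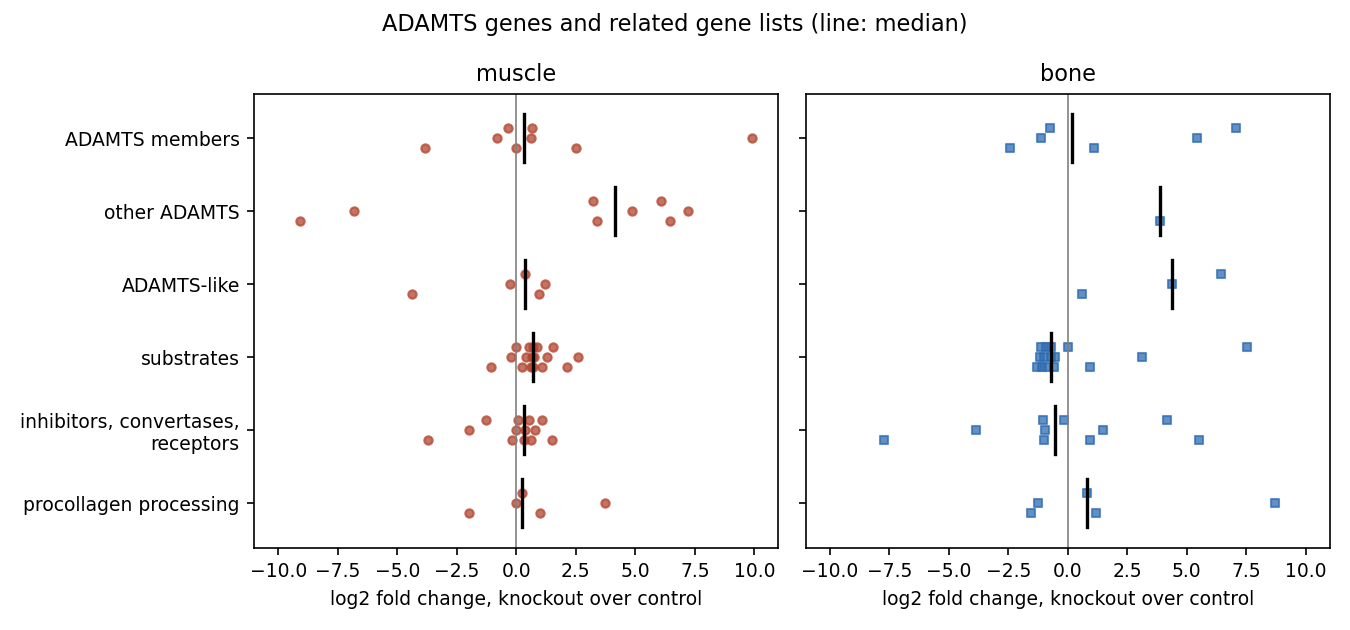
Log2 fold change of knockout over control for each gene with a p in the ADAMTS members and 5 related lists, in muscle (left) and bone (right), with the median of each list as a line. The 8 muscle members spread from -3.85 to 9.89 around a median of 0.31, and the remaining ADAMTS genes in muscle lie between -9.07 and 7.19.

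Promoter sequence from RefSeq on GRCm38.p6 was matched for 4 of the 8 members, Adamts1, Adamts2, Adamts9 and Adamts12. The windows of Adamts12, the member of smallest p in muscle, and Adamts1, the member of largest p, are printed. They are given because the knockout genotype allows deletion of an estrogen receptor gene. Each runs from 250 bases before to 50 bases after the gene's start in that source. For Adamts12 this is not the GENCODE M21 start of 11064790 given above. Capitals mark the estrogen response element half-site GGTCA and the GC box GGGCGG on either strand, while the TATA box TATAAA is left in lower case.
Adamts12, chr15:11064523-11064822, plus strand: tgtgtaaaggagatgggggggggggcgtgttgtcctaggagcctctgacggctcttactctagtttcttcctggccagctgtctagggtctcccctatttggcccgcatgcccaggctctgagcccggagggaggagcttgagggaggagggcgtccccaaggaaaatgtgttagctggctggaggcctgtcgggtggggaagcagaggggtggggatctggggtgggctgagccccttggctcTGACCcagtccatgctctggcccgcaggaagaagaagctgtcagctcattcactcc
Adamts1, chr16:85803064-85803363, minus strand: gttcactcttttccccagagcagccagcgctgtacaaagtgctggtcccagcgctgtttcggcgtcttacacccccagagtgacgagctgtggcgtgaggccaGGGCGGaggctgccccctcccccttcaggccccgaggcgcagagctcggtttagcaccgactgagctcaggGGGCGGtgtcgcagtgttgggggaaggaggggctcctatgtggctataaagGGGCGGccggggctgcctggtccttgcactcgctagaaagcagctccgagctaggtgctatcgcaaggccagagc
Adamts12 held 1 half-site and no GC box, and Adamts1 held no half-site, 3 GC boxes and 1 TATAAA. Adamts2 held 1 half-site and 5 GC boxes, and Adamts9 held no half-site and 1 GC box. None of the 4 windows held the full element, which is the half-site GGTCA, any 3 bases and then TGACC, and so contains the half-site. Of all 32851 promoter windows of this length, 40.5% held the half-site on either strand, 35.7% the GC box, 13.6% TATAAA and 0.07% the full element. A match describes letters in the window and is not a binding site, and no match says only that these letters are not in it.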

How the data were processed

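PDGFRα+ cells of 12 samples in 4 groups of 3 gave RNA for QuantSeq 3' libraries, per the labels' protocols. The submitters' processing notes name GRCm38 and mm10; no source used here names the aligner, the counter or the test. The authors deposited 1 table per tissue. Each holds a log2 fold change (knockout over control), made by the authors, and a deposited p-value with its FDR and Bonferroni forms. The larger group mean is a score from the deposited tables with no unit named. A further 48 per-library columns have names that match no label and were not used, so the planned count-based tests were not run and depths are unknown.

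A member was called at the authors' FDR under 0.05. Standard errors were implied from log2 fold change and p under a two-sided normal test, and Benjamini-Hochberg adjustments were recomputed, with Python 3.11.15, NumPy 2.4.6, pandas 2.3.3 and SciPy 1.17.1. The outer bands were set at the widest gap of the absolute log2 fold change minus log2 of the larger group mean, above 1. The adjustment, the implied standard errors and the tissue comparison were tested on simulated data. The rule for the outer bands was not. Genes were matched by ID to GENCODE M21. The genes of the lists named here are all members, up to 4 of smallest p per list and tissue, any that passed, and Esr1, Pdgfra, Timp3 and Lrp1. Members and lists were chosen with earlier results of these data known.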

Additional observations from a re-analysis of the deposited data

How the results depend on the processing

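No member was called in either tissue at the authors' FDR of 0.05, and that count of 0 held with Benjamini-Hochberg adjustment over every gene with a p, over genes whose larger group mean reached 10 or 50, and with the authors' Bonferroni p. With an unadjusted p under 0.05 the count was 1 in muscle (Adamts12) and 1 in bone (Adamts10), and at an FDR under 0.1 it was 0 in muscle and 1 in bone (Adamts10). Of 64 single-member values under these settings 61 stayed on their side of the threshold and 3 passed it, which were those of Adamts12 and Adamts10 named above. Over all genes the calls in muscle were 9 at FDR 0.05, 4 with Bonferroni and 1543 unadjusted. In bone they were 3, 1 and 3474, with 713 and 10 when adjusted over genes whose larger group mean reached 10 and those where it reached 50, and 2751 at FDR 0.1. The filter of at least 50 kept 4 members in muscle and 1 in bone. It left out Adamts12 in muscle, at a larger group mean of 48.1. Both level filters left out Adamts10 in bone, at 4.15. The count of 0 under those filters could therefore not have included these genes. edgeR, DESeq2, the filter on counts and leaving out replicates were not run, since the per-library columns could not be tied to samples. No paired analysis was possible because the columns carry no replicate numbers.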

Other observations

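Known regulators of ADAMTS transcription held no call in either tissue. In muscle 14 of 15 had a p, 10 had an FDR and 10 were positive per the authors' deposited table. Pgr, the progesterone receptor gene, had a log2 fold change of -8.35 per the authors' deposited table (p = 0.00621, no FDR), on the lower outer band. Il1r1, the interleukin-1 receptor gene, had 1.70, Runx2 6.14 and Tnf -4.92 per the authors' deposited table (p = 0.0183, 0.0643 and 0.0963), with Runx2 and Tnf on an outer band. In bone 13 had a p and 11 an FDR, and 4 had an unadjusted p under 0.05, all higher, a share near the 33% over all bone genes with a p. These were Il1b (10.32), Runx2 (8.04), Tgfb1 (7.69) and Nr4a3 (7.65) per the authors' deposited table, with FDR of 0.0784, 0.0793, 0.0831 and 0.0834, all on the upper band that held 41.5% of bone genes with a p.

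The membrane-anchored ADAM proteases, relatives of the ADAMTS family, held no call either. In muscle all 10 had a p and 8 were positive per the authors' deposited table (median log2 fold change 0.75), beside 53.5% of all muscle genes with a p. Adam12, a gene of regenerating muscle, had 7.54 on the upper band (p = 0.0203), Adam8 3.32 (p = 0.169), Adam15 1.03 (p = 0.222) and Adam17 1.24 (p = 0.326) per the authors' deposited table. In bone 8 had a p, of which 5 were positive and 3 had an unadjusted p under 0.05. Over all bone genes with a p, 69.7% were positive and 33% had such a p. The 4 of smallest p were Adam8 (9.93), Adam17 (8.31), Adam15 (7.63) and Adam33 (4.16) per the authors' deposited table. Their p were 0.00286, 0.00852, 0.0203 and 0.147. These 4 lay on the upper band, which held 41.5% of bone genes with a p.

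The gene positions of the deposited tables do not follow the build that the submitters' processing notes name. Of 25600 genes matched by ID to the GENCODE M21 annotation of GRCm38, 564 (2.2%) had the same start and end, while 25178 (98.4%) had the same length. For Adamts1 the table gives chromosome 16, 85590715 to 85600001, and the annotation 85793827 to 85803113, and for all 8 members the length is the same and the place differs. The positions printed for the members are therefore those of the annotation.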
